A study of Mus musculus with 6 samples.

Results

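The dual specificity MAP kinase phosphatases are described here by 10 of their members on the arrays, DUSP9 not being among them. The 10 are DUSP1, DUSP2, DUSP4, DUSP6, DUSP7, DUSP8, DUSP10, DUSP14, DUSP16 and LOC240672, which is the name the array gives to Dusp5. Every probe carrying 1 of these names was taken, which gave 21 of the 45281 probes and 10 of the 30854 gene names of the signal table. The family was chosen by its intensity on the FGF2 arrays against -GFs, seen in earlier results of these data. The levels of its members with FGF2 are therefore given as a description, without a test, and tests are given only for BMP4 and for other genes. The BMP4 tests share the -GFs arrays with the contrast of that choice.

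The cells were PA6, a murine stromal cell line that supports embryonic stem cells in co-culture, grown here alone to confluence. For 3 h they received serum-free medium that held no growth factor (-GFs), 20 ng/ml of recombinant FGF2 or 10 ng/ml of recombinant BMP4, the doses being those of the sample labels. Every biological replicate consisted of 1 well of each kind, and 2 replicates gave 6 Illumina MouseWG-6 v2.0 arrays. PA6 is a single established line and the 3 groups differed in the added factor only.

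Dual specificity phosphatases remove phosphate from both the threonine and the tyrosine of the activation loop of MAP kinases and so switch these kinases off. Several of their genes are themselves transcribed when ERK is active, which closes a negative feedback loop around receptors such as those of FGF. Nuclear inducible enzymes (DUSP1, DUSP2, DUSP4, DUSP5), cytoplasmic enzymes that prefer ERK (DUSP6, DUSP7) and enzymes that prefer JNK and p38 (DUSP8, DUSP10, DUSP16) are usually told apart, and DUSP14 is a small atypical enzyme without the MAP kinase binding domain.

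Values are normalized intensities, that is, the brightness of the beads of a probe after cubic spline normalization, on a linear scale. Changes are differences of log2 intensity with the standard error (SE) of limma, fitted to all genes at once. A gene was called where the log2 fold change was over 1 in size and the adjusted p was under 0.1. A probe counted as detected on an array where its detection p was under 0.05, and it was tested where this held for both arrays of any group. Of the 21 probes 16 passed this filter, and the 10 genes all entered the test, each through the passing probe of highest mean, among 11872 genes. Intensities of different probes depend on the probe, so that levels are compared between groups and never between genes.

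The 6 arrays were alike in median raw intensity (153.4 to 168.1) and in detected probes (15509 to 16459). Of 10 stromal markers 9 were detected on all 6 arrays, KITL being the exception, on 0. Markers of other cell types were partly detected. PTPRC, CD68 and EMR1 of macrophages, PECAM1, CDH5 and TIE1 of endothelial cells, NANOG and ZFP42 of embryonic stem cells and EPCAM, KRT8 and KRT18 of epithelial cells were detected on 0 arrays, whereas CD14, TEK, POU5F1 and CDH1 of the same lists were detected on 6, CSF1R on 5 and KDR on 4. The summed intensity of the 5 macrophage markers, most of it from CD14, ranged from 2551 to 2660 in -GFs, from 2257 to 2358 with FGF2 and from 2381 to 2521 with BMP4. That of the 10 stromal markers was 102968 to 108684 in -GFs, 85153 to 91688 with FGF2 and 92800 to 114925 with BMP4. The part of these shifts in the results was not tested. As a check of the BMP4 arrays, ID1, a direct target of BMP signalling, was higher by 2.77 on the log2 scale (SE 0.16, adjusted p = 0.00941 by limma with Benjamini-Hochberg adjustment). The call of ID1 was lost without -GFs replicate 1 (adjusted p = 0.126), without -GFs replicate 2 (0.103) or without BMP4 replicate 1 (0.119), although its log2 fold change stayed between 2.77 and 2.82.

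With FGF2, DUSP4, DUSP5 and DUSP6 stood far above -GFs and DUSP1 and DUSP7 a little above it, whereas the members that prefer JNK and p38 and the atypical DUSP14 were close to -GFs or below it. With BMP4, none of the 10 members was called, where only 0.00842% of all genes were called higher and 0% lower. The plot of all members by array shows these values, and the members are taken by their roles. In bulk cultures, more cells with a transcript and more transcript per cell cannot be told apart. In GRCm38.p6 the 3 genes farthest above -GFs lie apart, Dusp4 at chr8:34807610-34819894, Dusp5 at chr19:53529145-53541809 and Dusp6 at chr10:99263231-99267489.

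**Figure D1:**
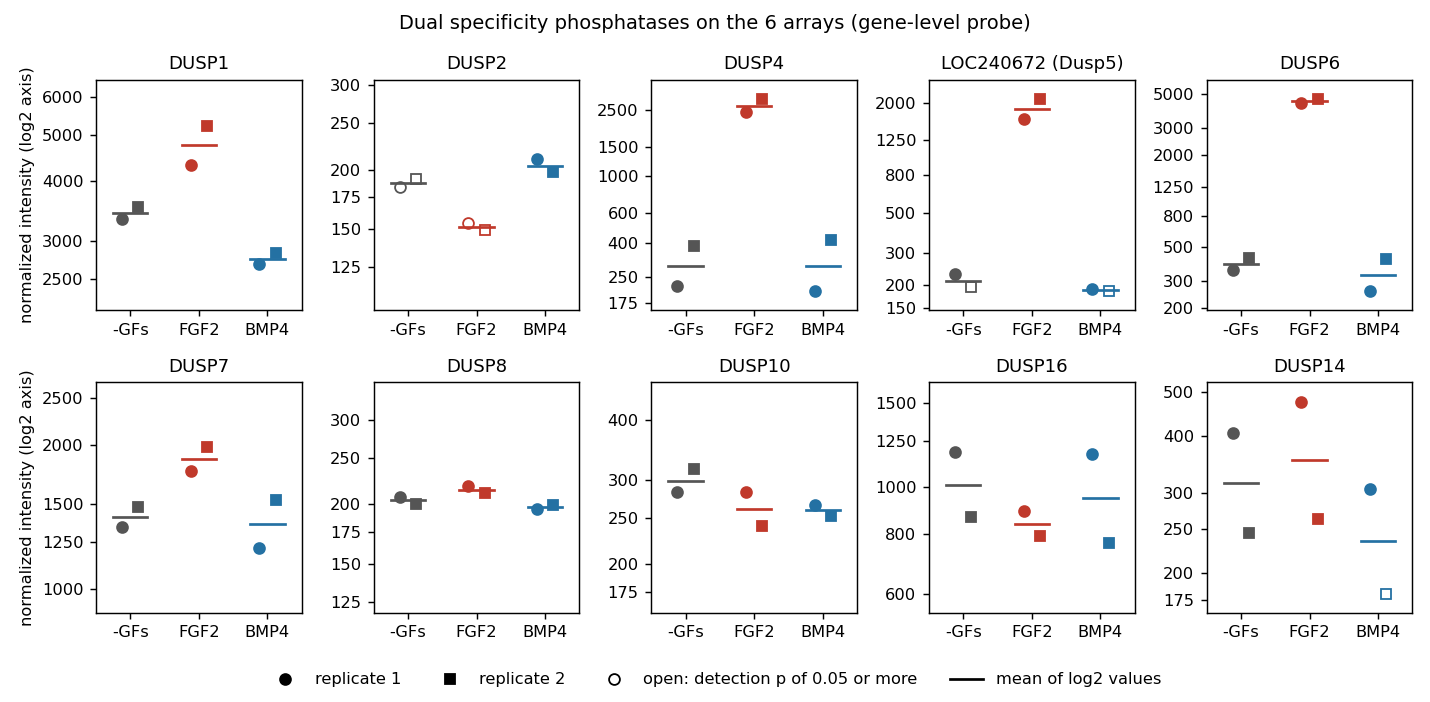
Normalized intensity of the 10 phosphatases on the 6 arrays (vertical axes on a log2 scale, each gene with its own range), with 2 arrays each for -GFs, FGF2 and BMP4. Circles are replicate 1, squares replicate 2, open symbols have a detection p of 0.05 or more and lines are means of log2 values. The FGF2 arrays stand apart from the other 4 for DUSP4, LOC240672 and DUSP6, and the replicates stand apart within every group for DUSP14.

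Among the nuclear inducible enzymes, LOC240672 (Dusp5), a phosphatase with a strong preference for ERK, was hardly measurable without FGF2. Its intensity was 230.2 and 195.4 in -GFs, 1640 and 2103 with FGF2, and 190.3 and 186.3 with BMP4. The -GFs and BMP4 values lie at the edge of detection, with 1 of 2 arrays detected in each of these groups, so that the gene entered the test through FGF2 alone, and both FGF2 arrays lie well above all the others. FGF2 and -GFs differed by 3.13 on the log2 scale (SE 0.18, n = 2 per group), with 2.83 in replicate 1 and 3.43 in replicate 2.

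DUSP4, which acts on ERK and JNK in the nucleus and is itself an early response gene, had intensities of 220.9 and 381.9 in -GFs, 2419 and 2906 with FGF2, and 206.5 and 415.9 with BMP4. Both FGF2 arrays were above the other 4 arrays, and the replicate 2 array was the brighter in each of the 3 groups. Its log2 difference between FGF2 and -GFs was 3.19 (SE 0.38, n = 2 per group), with 3.45 and 2.93 in the 2 replicates. Without FGF2 replicate 2 the difference was 3.06 and no longer called.

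DUSP4 has 3 further probes, and they did not give the same size of difference. On the second probe the intensity was 276.8 and 378.9 in -GFs and 1407 and 2221 with FGF2, a log2 difference of 2.45 (SE 0.28). On the third it was 197.4 and 215.1 in -GFs and 386.3 and 423.5 with FGF2, a log2 difference of 0.97 (SE 0.17). The fourth probe was detected on 0 arrays. The 3 detected probes thus agree in direction and differ in size, the third lying near the detection limit in -GFs.

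DUSP1, an early response gene whose product acts on p38, JNK and ERK, was detected on all 6 arrays, those without any factor included. Its intensity was 3337 and 3541 in -GFs, 4325 and 5232 with FGF2, and 2687 and 2832 with BMP4. The 3 groups did not overlap, FGF2 being the highest and BMP4 the lowest. The difference of FGF2 from -GFs was 0.47 on the log2 scale (SE 0.16, n = 2 per group), with 0.37 and 0.56 in the 2 replicates, and it ranged from 0.33 to 0.61 when 1 array at a time was left out.

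DUSP2, known mainly from activated lymphocytes and other blood cells, was detected on both BMP4 arrays and on no other, and it entered the test through that group alone. Its intensity was 183.6 and 191.7 in -GFs, 154.4 and 149.3 with FGF2, and 210.1 and 197.4 with BMP4. In -GFs and with FGF2 it was thus not above background, and only a bound can be given there. The mean intensity with BMP4 was at least 1.057-fold that in -GFs, a bound that leaves out the spread between arrays. The measured log2 difference was 0.12 with an SE of 0.14, so that no rise is established. The detection p with BMP4 (0.0192 and 0.0438) was close to the limit. The second DUSP2 probe was detected on 0 arrays.

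Of the cytoplasmic enzymes, DUSP6, the ERK phosphatase known as a marker of FGF signalling in embryos, had the largest difference of the family with the spline normalization, and LOC240672 had a larger one with neqc (4.42 against 4.10). Its intensity was 353.5 and 427.4 in -GFs, 4417 and 4666 with FGF2, and 259.8 and 420.9 with BMP4. The 2 FGF2 arrays were close to each other and far above the other 4. The log2 difference between FGF2 and -GFs was 3.55 (SE 0.25, n = 2 per group), an 11.7-fold difference, with 3.64 and 3.45 in the 2 replicates.

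The second DUSP6 probe had an intensity of 178.2 and 204.8 in -GFs, 729.7 and 972.1 with FGF2, and 161.2 and 196.1 with BMP4. It was detected on 1 of 2 arrays in -GFs and 1 of 2 with BMP4, and its log2 difference between FGF2 and -GFs was 2.14 (SE 0.20). The third DUSP6 probe was detected on 1 FGF2 array only and was not tested.

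DUSP7, the close relative of DUSP6 in the cytoplasm, behaved differently in size. Its intensity was 1347 and 1481 in -GFs, 1765 and 1973 with FGF2, and 1218 and 1533 with BMP4. Both FGF2 arrays were above the other 4, but by a small margin. The log2 difference between FGF2 and -GFs was 0.40 (SE 0.17, n = 2 per group), with 0.39 and 0.41 in the 2 replicates.

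The enzymes that prefer JNK and p38 had no member far above -GFs. DUSP8 had an intensity of 207.7 and 200.4 in -GFs, 218.8 and 211.1 with FGF2, and 195.3 and 199.7 with BMP4. All 6 of these values lie near the detection limit and within 0.16 of each other on the log2 scale. FGF2 differed from -GFs by a log2 value of 0.07 (SE 0.14).

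DUSP10, which restrains JNK and p38, had an intensity of 283.1 and 315.6 in -GFs, 283.3 and 240.3 with FGF2, and 266.3 and 252.0 with BMP4. The FGF2 and -GFs arrays overlapped, and the log2 difference was -0.20 (SE 0.16) on this probe and -0.11 (SE 0.15) on the second probe. In replicate 1 the FGF2 array was level with -GFs on this probe, and the difference came from replicate 2 (-0.39).

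DUSP16, a JNK phosphatase that shuttles between nucleus and cytoplasm, was clearly detected in every group. On its main probe the intensity was 1184 and 866.6 in -GFs, 893.6 and 790.5 with FGF2, and 1177 and 766.1 with BMP4. The replicate 1 array was the brighter in each group, and the groups overlapped. The log2 difference between FGF2 and -GFs was -0.27 (SE 0.25) on this probe, -0.30 (SE 0.33) on the second and -0.65 (SE 0.25) on the third. The third probe had 746.8 and 585.5 in -GFs against 474.2 and 375.1 with FGF2, so that its groups did not overlap. The remaining 2 DUSP16 probes were detected on 0 arrays.

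DUSP14, the atypical member, differed more between the replicates than between the groups. Its intensity was 406.8 and 244.9 in -GFs, 477.3 and 263.5 with FGF2, and 307.1 and 180.7 with BMP4, the last of these below detection. In each group the replicate 1 array was much the brighter, and within each replicate the order was FGF2, -GFs, BMP4. The log2 difference between FGF2 and -GFs was 0.17 (SE 0.39), with 0.23 and 0.11 in the 2 replicates.

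**Figure D2:**
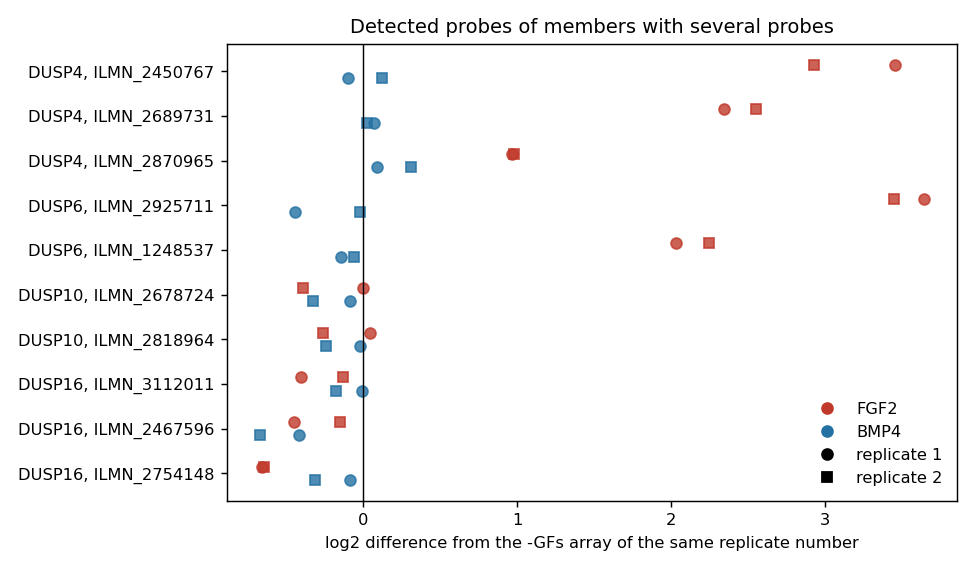
Log2 difference from the -GFs array of the same replicate number (horizontal axis) for each detected probe of DUSP4, DUSP6, DUSP10 and DUSP16, with FGF2 in red, BMP4 in blue, circles for replicate 1 and squares for replicate 2. The 3 DUSP4 probes range from 0.97 to 3.19 in mean log2 difference with FGF2 and the 2 DUSP6 probes from 2.14 to 3.55, while the DUSP10 and DUSP16 probes lie at or below 0.05 for both factors.

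Counted over the family, 3 of the 10 members (DUSP4, DUSP6 and LOC240672) were called higher with FGF2, where 2.28% of all genes tested were called higher, and 0 were called lower, where 1.25% of all genes were. These counts use the contrast by which the family was chosen and are a description. Without the threshold on the fold, the same 3 members passed (6.03% of all genes upwards), and in the model blocked on the replicate 5 passed, the added ones being DUSP1 and DUSP7 (18.1% of all genes upwards). With the fold threshold the blocked model called 3 higher and 0 lower, beside 2.51% and 1.44% of all genes. The arrays of FGF2 lay wholly above those of -GFs for 6 members (24.6% of all genes) and wholly below for DUSP2 (29.1%). The median log2 difference of the 10 members was 0.28, beside -0.02 over all genes. The difference thus came from few members, and the median member was far from the 3 called.

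The promoters of the members are shown for DUSP5 and DUSP6, the called members with an entry, and for DUSP1 and DUSP8, which carry palindromic elements but differed little with FGF2. The sequences are the 250 bases before the start in the promoter entry of each gene in GRCm38.p6. They are written from 5′ to 3′ on the strand of the gene. This start is at the end of the gene span for Dusp1, Dusp5 and Dusp6. For Dusp8 it lies inside the span (chr7:142079487-142095907), as it does for Dusp7, Dusp14 and Dusp16. Of the 7 motifs searched on both strands, capitals mark the ETS core CGGAAG, the CRE core TGACG bound by CREB, the AP-1 site TGANTCA and the CArG box bound by serum response factor, and the E-box CACGTG, the GC box GGGCGG and the TATA box TATAAA are not marked.
Dusp5 (chr19:53528895-53529144, plus strand): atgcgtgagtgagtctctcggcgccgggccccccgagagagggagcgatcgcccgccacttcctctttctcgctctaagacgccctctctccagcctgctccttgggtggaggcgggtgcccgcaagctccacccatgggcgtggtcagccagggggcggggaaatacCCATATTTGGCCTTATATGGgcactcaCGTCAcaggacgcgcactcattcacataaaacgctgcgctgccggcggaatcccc
Dusp6 (chr10:99262981-99263230, plus strand): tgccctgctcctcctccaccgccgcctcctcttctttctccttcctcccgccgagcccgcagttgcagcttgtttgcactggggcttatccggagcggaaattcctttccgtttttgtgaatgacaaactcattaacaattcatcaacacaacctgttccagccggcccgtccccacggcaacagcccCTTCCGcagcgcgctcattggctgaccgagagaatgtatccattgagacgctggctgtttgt
Dusp1 (chr17:26508473-26508722, minus strand): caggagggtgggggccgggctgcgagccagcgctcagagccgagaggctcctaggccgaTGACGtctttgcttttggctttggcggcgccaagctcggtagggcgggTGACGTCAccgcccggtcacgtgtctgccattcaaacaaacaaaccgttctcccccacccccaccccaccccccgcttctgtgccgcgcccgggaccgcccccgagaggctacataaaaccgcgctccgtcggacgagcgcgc
Dusp8 (chr7:142095285-142095534, minus strand): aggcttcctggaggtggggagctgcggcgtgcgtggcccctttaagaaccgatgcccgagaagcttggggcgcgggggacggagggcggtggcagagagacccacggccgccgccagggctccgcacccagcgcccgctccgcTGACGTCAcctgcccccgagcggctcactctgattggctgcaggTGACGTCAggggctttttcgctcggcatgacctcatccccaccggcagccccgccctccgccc

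In the Dusp5 sequence the long run of capitals is a pair of adjacent CArG boxes, 82 to 73 and 72 to 63 bases before the start, followed by a CRE core on the opposite strand at 55 to 51. A CArG box was found in 1.47% of the 32851 promoters searched and 2 or more in 0.0183%, and Dusp5 was the only one of the 9 members with an entry to have one. The Dusp6 sequence had neither, and its capitals mark an ETS core on the opposite strand, 62 to 57 bases before the start, a motif found in 13.6% of promoters and also in Dusp14. The CRE core was found in 17.8% of promoters and in Dusp1, Dusp5, Dusp8 and Dusp16. In Dusp1 and Dusp8 it formed a full palindrome (1.55% of promoters), which in Dusp8 occurred at 107 to 100 and again at 63 to 56 bases before the start. The AP-1 site was in 6.75% of promoters and the TATA box in 12.4%, and both were in 0 of the 9. The E-box was in 6.02% of promoters and in Dusp1 and Dusp2, and the GC box was in 32.7% of promoters and in 7 of the 9, all but Dusp6 and Dusp7. Dusp5 and Dusp6 thus shared none of the 7 motifs. A match of letters is a description and not a bound site.

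With BMP4, the question is whether the factor moved any member within 3 h. The family was not chosen by this contrast, which is tested here, but the -GFs arrays are shared with the contrast that was used. The p-values of the members are thus not independent of the choice. None of the 10 members was called in either direction, where 0.00842% of all genes, that is 1 gene, were called higher and 0% lower. By limma without the replicate block, 0 of the 10 members had an unadjusted p under 0.05 (0.775% of all genes were higher and 1.04% lower at that limit). By the methods' t-test 1 member, DUSP1, had one (3.64% of all genes). The adjusted p was 0.999 for each of the 10 members. Of these, DUSP2 entered the test through the BMP4 arrays alone and LOC240672 through the FGF2 arrays alone, so that nothing is concluded from their p-values. With the replicate block 0 members were called, beside 0.0758% of all genes higher and 0.00842% lower, and the smallest adjusted p was 0.398, for DUSP14.

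Of the 10 members, DUSP2 and LOC240672 lay at or below the edge of detection in -GFs, and no interval is given for them. The same fit blocked on the replicate is given beside the main one where its interval is much narrower or leaves out 0. DUSP1 was lower with BMP4 by a log2 difference of -0.32 (SE 0.16, 95% interval -0.69 to 0.06), with -0.31 and -0.32 in the 2 replicates and no overlap between the groups. With the block its interval was -0.61 to -0.02 and its adjusted p 0.659. For DUSP6 the log2 difference was -0.23 (95% interval -0.82 to 0.35, or -0.56 to 0.09 with the block).

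DUSP4 was level between BMP4 and -GFs, with a log2 difference of 0.01, and its interval was -0.89 to 0.92, or -0.33 to 0.36 with the block. DUSP14 had the largest difference in size, -0.42 (95% interval -1.36 to 0.51), and its pair differences were alike (-0.41 and -0.44). The SE of DUSP14 was 0.39 without and 0.14 with the replicate block, so that most of its spread lay between the replicates. The blocked interval of DUSP14 was -0.71 to -0.13, with the adjusted p of 0.398. The other members with an interval were within 0.21 of 0, with intervals of -0.46 to 0.36 for DUSP7, -0.38 to 0.28 for DUSP8, -0.58 to 0.17 for DUSP10 and -0.69 to 0.51 for DUSP16. With the block the interval of DUSP16 was -0.40 to 0.21. On the second DUSP16 probe the difference was -0.54, the largest of any probe with BMP4.

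The arrays of BMP4 lay wholly below those of -GFs for 4 members, DUSP1, DUSP8, DUSP10 and LOC240672 (12.8% of all genes), and wholly above for DUSP2 (11.2%), with LOC240672 and DUSP2 at the edge of detection. The median log2 difference of the 10 members was -0.13, beside 0.00 over all genes, with 8 members lower and 2 higher. Groups of 2 and 2 separate often, and a two-sided exact permutation test of such groups cannot go below p = 0.333.

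**Figure D3:**
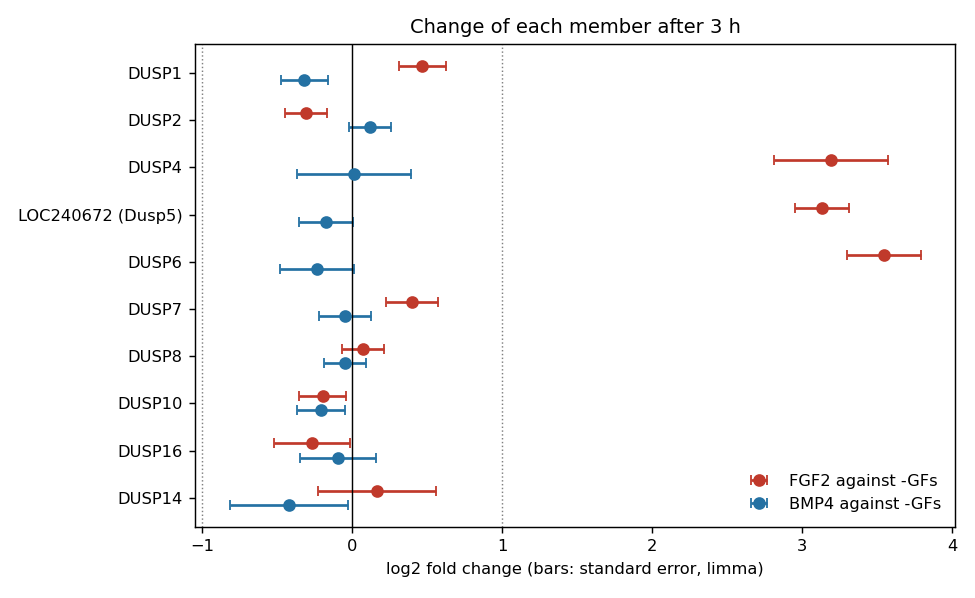
Log2 fold change of each member (horizontal axis) with FGF2 in red and with BMP4 in blue, both against -GFs, with bars for the standard error of limma and dotted lines at a log2 fold change of -1 and 1. DUSP4, LOC240672 and DUSP6 lie above 3 with FGF2, DUSP1 and DUSP7 lie between 0.4 and 0.5, and all BMP4 values lie between -0.42 and 0.12.

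Set directly against BMP4, FGF2 gave the same 3 called members, with log2 differences of 3.78 (SE 0.25) for DUSP6, 3.30 (SE 0.18) for LOC240672 and 3.18 (SE 0.38) for DUSP4, where 2.03% of all genes were called higher, and 0 called lower, where 1.04% were. For DUSP1 the log2 difference was 0.79 (SE 0.16), the BMP4 arrays being the lowest. This comparison uses the same FGF2 arrays as the one with -GFs and is likewise a description.

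The members also differed in how much they varied between the 2 replicates, a measure apart from the treatment. Averaged over the 3 groups, replicate 2 differed from replicate 1 by -0.78 on the log2 scale for DUSP14, and only 2.82% of all genes tested had a larger difference in size. DUSP4 differed by 0.69 the other way (4.45% of genes larger) and DUSP16 by -0.42 (14.9% larger), against a median size of 0.17 over all genes. The remaining 7 members differed by 0.35 or less, DUSP2, DUSP8, LOC240672 and DUSP10 by 0.05 or less. The FGF2 difference of DUSP4 was several times its replicate difference, whereas that of DUSP14 was smaller than its own. For DUSP16 it was the smaller on the main and the second probe and the larger on the third (-0.65 against -0.42).

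The genes most like DUSP6 over the 6 arrays, by Pearson r of log2 intensity and without a test, were BHLHB2 (0.999), LOC100044430 (0.998), SKP2 (0.998), SPRY4 (0.998) and EGR2 (0.998). The 6 arrays fall into the 2 FGF2 arrays and the rest, so that any gene with a steady FGF2 difference comes out high. The log2 difference between FGF2 and -GFs was 2.49 for BHLHB2, a transcriptional repressor, 4.13 for EGR2, an early response factor, and 0.64 for SKP2, a ubiquitin ligase subunit. SPRY4, another feedback inhibitor of the FGF receptor pathway, was detected on the FGF2 arrays alone.

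The other parts of the MAP kinase pathway were read from 7 lists, of which 71 genes besides the members were tested. In the 4 lists that run from the FGF receptors to the kinases activated by MAP kinases, 40 genes were tested. With FGF2, 3 were called, 1 of them higher and 2 lower, beside 2.28% and 1.25% of all genes. The median log2 difference was 0.04. Without the threshold on the fold 5 passed upwards and 5 downwards (6.03% and 5.78% of all genes). The kinases that the members act on thus had no common direction.

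FGFR2, a receptor of FGF ligands, fell by 1.29 on the log2 scale with FGF2 (SE 0.17, adjusted p = 0.0114 by limma), from 5732 and 4628 to 1999 and 2206. GAB1, an adaptor between receptors and RAS signalling, fell by 1.06 (SE 0.18, adjusted p = 0.0231 by limma). MAP2K3, a kinase that activates p38, rose by 1.13 (SE 0.19, adjusted p = 0.0256 by limma), from 6365 and 7998 to 14115 and 17215. These 3 calls were lost without either FGF2 array, where the adjusted p was 0.107 and 0.108 for FGFR2, 0.165 and 0.149 for GAB1 and 0.113 and 0.201 for MAP2K3. The call of GAB1 was also lost without -GFs replicate 2 (log2 fold change -0.87), and that of MAP2K3 without -GFs replicate 1 (0.96) and with median scaling (0.99). Without the fold threshold, 3 genes of the JNK and p38 list passed upwards and 1 downwards. The latter was MAP2K6, named outside the rule for genes, with a log2 difference of -0.60 (SE 0.15) and detection on 0 FGF2 arrays.

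The ERK feedback and early response genes stood nearest to DUSP4, DUSP5 and DUSP6. Of 15 tested, 10 were called higher with FGF2 and 0 lower, beside 2.28% and 1.25% of all genes. Their median log2 difference was 1.92. EGR1 rose by 4.19 (SE 0.36, adjusted p = 0.00459), EGR2 by 4.13 (SE 0.22, adjusted p = 0.0011), EGR3 by 3.43 (SE 0.18, adjusted p = 0.0011) and IER3 by 2.52 (SE 0.24, adjusted p = 0.00666), all by limma. The first 3 are transcription factors of the early growth response family. The list was drawn up with these responses known, so that its count and these adjusted p-values are no independent evidence.

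The other dual specificity phosphatases, 10 of 21 of which were tested, had 0 genes called and 0 past the adjusted p without the fold threshold, and 1 had an unadjusted p under 0.05 by limma and 1 by the methods' t-test. Their log2 differences with FGF2 ranged from -0.49 to 0.51 with a median of 0.07. DUSP9, an ERK phosphatase related to DUSP6 and DUSP7 and named outside the rule for genes, was on the array and was not tested since it did not pass the detection filter. Of 6 tested phosphatases of other kinds that act on MAP kinases, 0 were called and 1 passed the adjusted p without the fold threshold, PPP2CA, a catalytic subunit of PP2A (0.71, adjusted p = 0.041 by limma), which was named after its value was seen. With BMP4, 0 genes were called in each of the 7 lists, and in all but the JNK and p38 list, where 1 gene did, 0 had an unadjusted p under 0.05 by limma. The methods' t-test gave 0 to 2 genes per list at that limit.

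**Figure D4:**
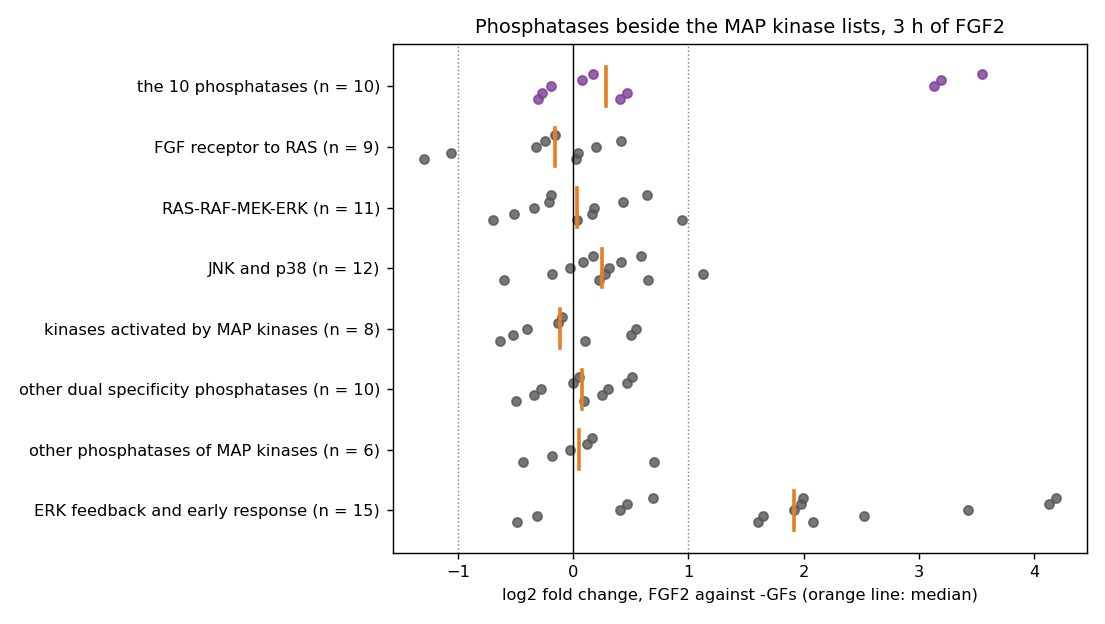
Log2 fold change of FGF2 against -GFs (horizontal axis) for the 10 phosphatases in purple and for the tested genes of the 7 MAP kinase lists in grey, 1 point per gene, with orange lines for medians and dotted lines at -1 and 1. Apart from MAP2K3, the points above 1 belong to DUSP4, LOC240672, DUSP6 and 10 of 15 ERK feedback and early response genes.

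The size of the FGF2 difference depended on the background correction for LOC240672, DUSP6 and DUSP4. With neqc, a background correction from the detection p-values, the log2 difference between FGF2 and -GFs was 4.42 for LOC240672 in place of 3.13 and 4.10 for DUSP6 in place of 3.55. Both are dim in -GFs, LOC240672 at the edge of detection. For DUSP4 the brightest probe with neqc was the second one, on which the difference was 3.10 in place of 2.45, and when the probes of the gene were averaged it was 2.20. For DUSP1 and DUSP7, which are well above background, it was 0.48 and 0.44 with neqc. The order of DUSP6, LOC240672 and DUSP4 thus depended on the method, while these 3 remained above the other 7 members under each of these settings.

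**Figure D5:**
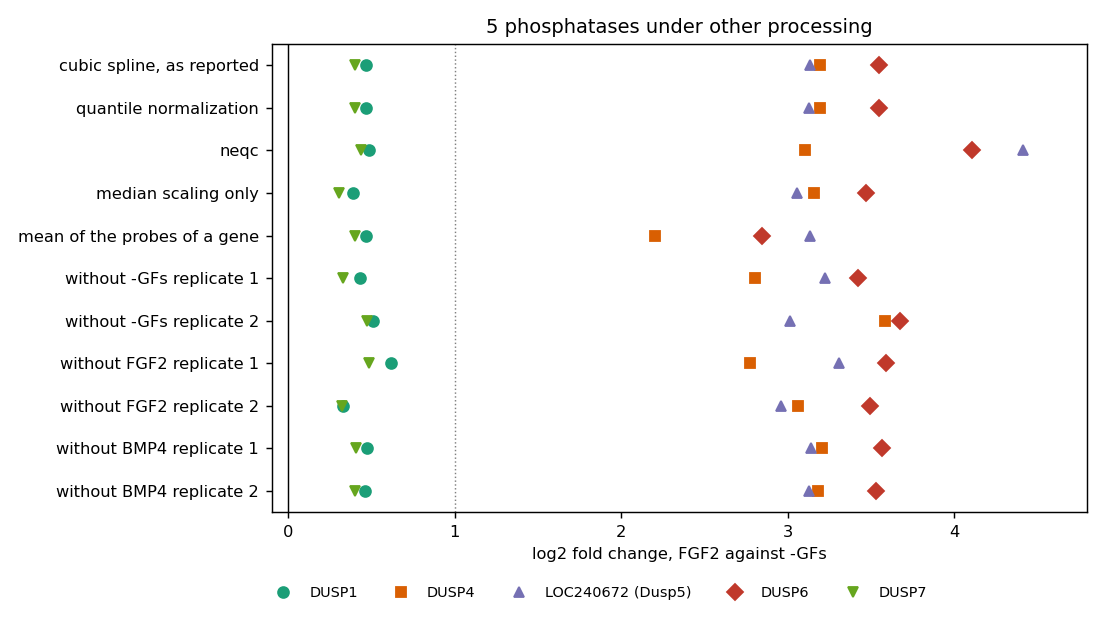
Log2 fold change of FGF2 against -GFs (horizontal axis) of 5 phosphatases under the reported cubic spline normalization, other normalizations, the mean of the probes and with 1 array left out at a time (vertical axis). Under each of these settings DUSP4, LOC240672 and DUSP6 lie above 2 and DUSP1 and DUSP7 below 0.7, and LOC240672 reaches 4.42 with neqc. The DUSP4 points with neqc and without FGF2 replicate 1 are of its second probe.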

How the data were processed

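RNA of pure PA6 cultures, treated for 3 h as described (2 arrays per group, grouped by the labels), was analysed. The intensity values deposited by the authors are mean bead signals per probe on a linear scale without normalization between arrays, each with a deposited detection p-value. The labels name GenomeStudio 2011.01. The table also holds 9 columns without a heading, which were not used. No depth applies to arrays, and the number of arrays limits the precision.

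The methods name cubic spline normalization, which was written anew in R 4.3.3 (452 quantiles per array). Log2 values of genes detected (p under 0.05) on both arrays of a group were fitted with limma 3.58.1 (lmFit, eBayes) on all 6 arrays, with 3 residual degrees of freedom and Benjamini-Hochberg adjustment over 11872 genes. For genes with several such probes the brightest on average was taken. The procedure was tested on simulated data in which the arrays varied independently. Deviations shared by same-numbered arrays were not part of that test. Bounds set the bright group's mean against the lowest detected signal per array, or the dim probe's own where that is higher. The methods' t-test is the unpaired two-tailed test they name.

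The genes named are the members, the called genes of each MAP kinase list (at most 4), the 5 genes most like DUSP6, ID1 and cell type markers. Members and lists were chosen with earlier results of these data known. Promoters, names and coordinates are from RefSeq GRCm38.p6, used for these only, and 9 of 10 members had a promoter entry.

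The replicate numbers pair the arrays, since the labels give each biological replicate a well of every treatment, and deviations from the group mean were shared by same-numbered arrays (correlations over genes of 0.602, 0.741 and 0.579). Nothing in the labels tells separate cultures from separate wells of 1 culture, so that p-values measure the spread between these samples. Alternatives were other normalizations (quantile, neqc with an offset of 16, median scaling), detection filters, choices of probe, thresholds, variance models, the replicate block, the methods' t-test, only the 2 groups compared, and leaving out each array.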

Additional observations from a re-analysis of the deposited data

How the results depend on the processing

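The count of members called higher with FGF2 was 3 under most settings. It was 2 with probes detected on all 6 arrays, where LOC240672 was not tested, and it ranged from 2 to 3 when 1 array was left out. After Benjamini-Hochberg adjustment of the methods' t-test it was 0, against -GFs and against BMP4 alike, with 0 genes called among all 11872, and without adjustment it was 3 against -GFs. Against BMP4 the count ranged from 2 to 3 when 1 array was left out. With BMP4, 0 members were called under every setting run, the range with 1 array left out being 0 to 0. Genes called in the MAP kinase lists with FGF2 numbered 13 (11 higher, 2 lower). They numbered 22 without the threshold on the fold, 0 by the adjusted t-test, 8 without FGF2 replicate 1 and 6 without FGF2 replicate 2, and from 6 to 13 with 1 array left out. A left-out array leaves a lone array in its group, which is assumed to vary like the others. With the replicate block the counts were 3 for FGF2, 0 for BMP4 and 13 for the lists, and with neqc and the block together, a setting chosen after seeing the data, they were 3, 0 and 18. Of 481 recomputed log2 fold changes of members, 450 moved by less than the spread between replicates, 31 moved by more and 0 changed sign among called values. Uncalled differences of DUSP4, DUSP6, DUSP7, DUSP10, DUSP14 and DUSP16 changed sign under 1 to 3 settings each, as that of DUSP14 with FGF2 (-0.26 to 0.60) and that of DUSP6 with BMP4 (-0.58 to 0.12). The cause of these shifts was not tested. Over all genes, median scaling gave 208 genes higher and 209 lower with FGF2, beside 271 and 148 with the spline. DUSP2, DUSP8 and LOC240672 outside FGF2 lie near the detection limit, and small differences there were not detectable with 2 arrays per group.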
